A study of Mus musculus with 9 samples.

Results

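Dusp1, Dusp2, Dusp4, Dusp5, Dusp6, Dusp7, Spry1, Spry2, Spred1 and Spred2 encode inhibitors of the ERK pathway, some of which cells make in response to the pathway itself. They were taken as a group of 10 genes by symbol, and each was read from its brightest probe set among those annotated to that symbol alone. Of the 10 genes, 9 were measured in this way among 17097 genes. Dusp5 has no such probe set in the annotation used here and was not analysed.

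ERK is a mitogen-activated protein kinase (MAP kinase) that growth factor receptors switch on through Ras, Raf and MEK. It enters the nucleus, where it drives immediate early genes, and among its targets are genes whose products shut the pathway down again. The Dusp genes encode phosphatases that take the activating phosphates off MAP kinases. Sprouty (Spry) and Spred proteins act further up, between the receptors and Raf. In macrophages and microglia some of these phosphatases, such as that of Dusp1, also limit p38 and JNK, the MAP kinases of inflammatory signalling.

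The samples were primary microglia from the cortices of P0-P2 C57BL/6J mice, with 3 samples per group. The methods speak of independent passages or cultures for each experiment but not of these arrays, and the labels do not say whether the samples were separate preparations of cells. Where they were not, p-values measure the spread between these samples, which may be technical. They were kept for 6 h in glioma-conditioned medium (GCM) of LN18 cells (GCM LN18), in that of U87-MG cells (GCM U87-MG), or left untreated (control). LN18 and U87-MG are established human glioblastoma lines, so the medium carries human proteins onto mouse cells. Whether the control cultures had a change of medium at the start of the 6 h is not given in the sources used here. RNA of each sample was hybridized to 1 of 9 Affymetrix MG-430 PM strip arrays. The array reads transcripts, not the phosphatase proteins or the phosphorylation of ERK. Its values are log2 signals, in which a difference of 1 is a 2-fold change, and since probe sets differ in their response, levels of different genes are set side by side only as a coarse check of the cell type. Precision is limited by the 3 arrays per group, since arrays have no read depth.

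For 100% of the 45141 probe sets, the mean over the 3 arrays of replicate 1 equalled that of replicates 2 and 3, within 1e-06. Differences between replicate numbers are thus absent from the values, which bears on every spread within a group given here. The replicate number was therefore a block in the fit of all 9 arrays by limma, and p-values were adjusted over all 17097 genes. A fit without this block overstates the precision of these values. Its p-values, given here as an alternative, are too small. The mean log2 signal over 15 of 17 microglia markers was between 8.59 and 8.65 with GCM LN18, 8.44 and 8.60 with GCM U87-MG, and 8.25 and 8.35 in control. Of these 15, 1 lay below the median gene level of 4.34 with GCM LN18, 3 with GCM U87-MG and 2 in control. P2ry12 was below it in each group (3.81, 3.71 and 3.44). The 9 measured neuronal markers all lay below the median gene level of 4.34 in each group, as did 9 of 10 for astrocytes and 9 of 10 for fibroblasts and endothelium. For the oligodendrocyte lineage 5 of 8 lay below it, with Cnp, Sox10 and Mag above (5.75, 5.18 and 4.53 in GCM LN18), and for border macrophages 4 of 7, with Ms4a7, Mrc1 and Pf4 above (10.96, 8.99 and 9.27 in GCM LN18).

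Among the ERK feedback genes, Dusp4 fell in GCM LN18, and no other measured member changed in either medium at an adjusted p under 0.05. In GCM LN18, 1 of the 9 measured members was called, against 0.877% of all genes. In GCM U87-MG, 0 of 9 were called by limma, against 0.0468% of all genes. At an unadjusted p under 0.05 there were 1 of 9 members in GCM LN18, against 12.2% of all genes, and 0 of 9 in GCM U87-MG, against 9.12%. The median log2 fold change of the 9 members was 0.05 with GCM LN18 and 0.01 with GCM U87-MG, and that of all genes was -0.0037 and -0.0026. Both comparisons use the same 3 control arrays.

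**Figure D1:**
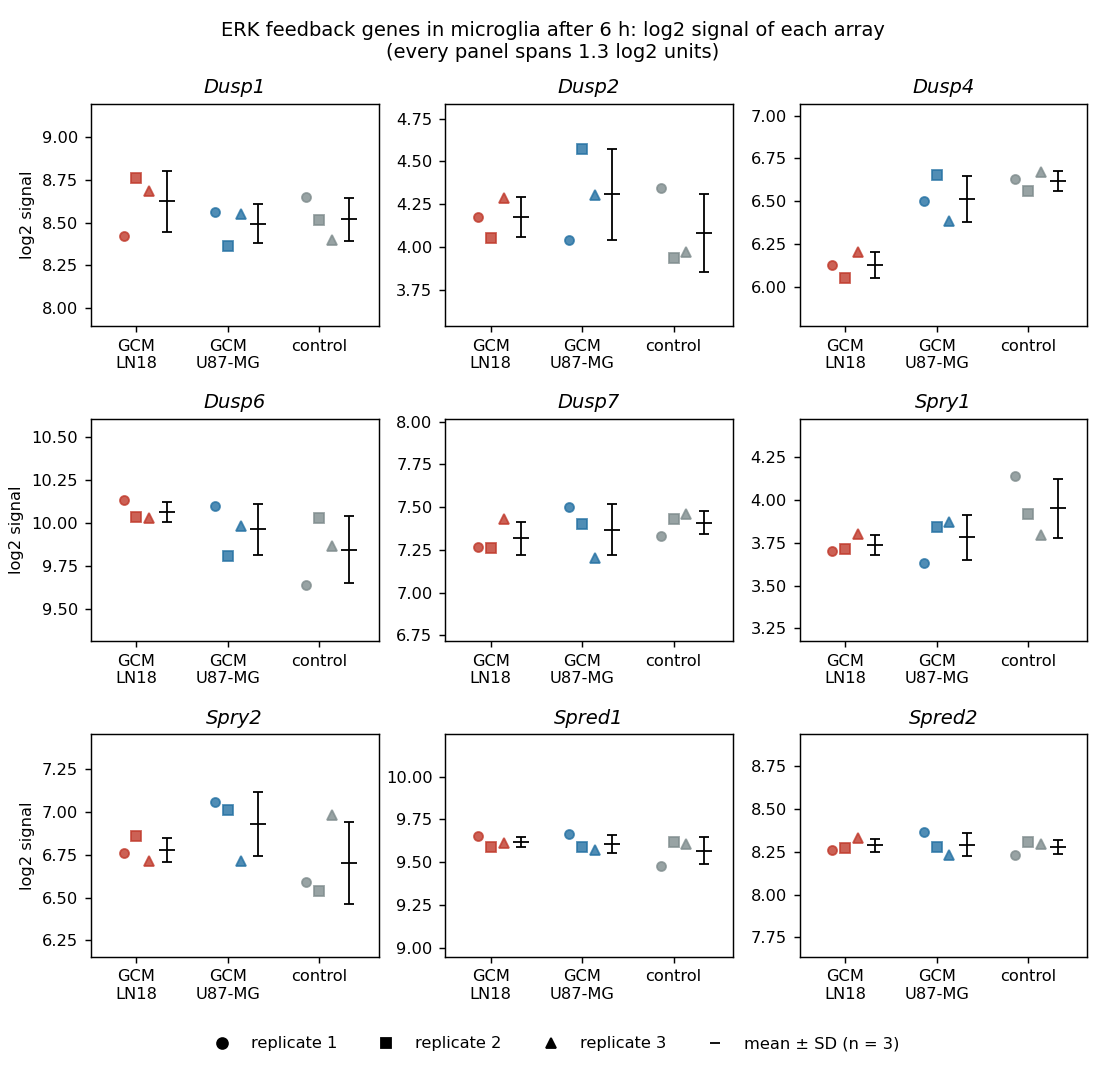
Log2 signal of the 9 measured ERK feedback genes on each array (vertical axis, 1.3 log2 units in every panel) by group (horizontal axis), with the replicate number as the symbol and the mean ± SD (n = 3) as black bars. The GCM LN18 arrays of Dusp4 lie between 6.05 and 6.21, below all other arrays of that gene, while the groups of the other members overlap.

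Dusp4 encodes a nuclear phosphatase that acts on ERK and JNK. Its gene lies on chromosome 8 (34807610-34819894, GRCm38.p6) and was read by its only probe set. The log2 signal of Dusp4 was 6.13, 6.05 and 6.21 with GCM LN18, 6.50, 6.65 and 6.38 with GCM U87-MG, and 6.63, 6.56 and 6.67 in control. All GCM LN18 arrays were below all control arrays and all GCM U87-MG arrays, while the GCM U87-MG and control arrays overlapped. Arrays of GCM LN18 and control did not overlap for 1 of the 9 members, against 23.9% of all genes, and those of GCM U87-MG and control for 0 of 9, against 19.1%.

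Dusp4 was lower in GCM LN18 than in control by a log2 fold change of -0.49 (standard error 0.08, 95% confidence interval -0.69 to -0.30, adjusted p = 0.0473 from limma), which is 0.711 of the control level. It ranked 130 of 17097 genes by p in that comparison. The call was just past the threshold, and it did not hold when p-values were adjusted over all 28898 probe sets with 1 symbol (adjusted p = 0.0564). It was also lost without GCM LN18 replicate 1 (adjusted p = 0.200), 2 (0.278) or 3 (0.127), control replicate 1 (0.102), 2 (0.0701) or 3 (0.115) or GCM U87-MG replicate 1 (0.0857), with log2 fold changes between -0.55 and -0.43 whichever array was left out. In GCM U87-MG, Dusp4 had a log2 fold change of -0.11 (95% confidence interval -0.30 to 0.09, adjusted p = 0.754 from limma). In bulk cultures, less Dusp4 RNA per cell and fewer cells that express it cannot be told apart.

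Set directly against GCM U87-MG, GCM LN18 gave a Dusp4 signal lower by 0.39 on the log2 scale (log2 difference -0.39, 95% confidence interval -0.58 to -0.19). The unadjusted p was 0.00172 and the adjusted p was 0.917 from limma, so the media are not shown to differ. In this comparison 0% of all genes were called by limma (865 genes had an unadjusted p under 0.05). Of the 9 members, 0 were called, 1 had an unadjusted p under 0.05, and 1 had arrays that did not overlap, against 17.4% of all genes. Averaged over both media, Dusp4 had a log2 fold change of -0.30 against control (adjusted p = 0.130 from limma, 0.0277 without the replicate block). In that comparison 0.813% of all genes and 0 of 9 members were called. At an unadjusted p under 0.05 there was 1 of 9 members, against 12.4% of all genes.

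The genes whose signal followed that of Dusp4 most closely over the 9 arrays were Wls, which carries Wnt proteins to the cell surface (Pearson r = 0.993, Spearman rho = 0.933), Rnf103, a ubiquitin ligase (r = 0.991, rho = 0.983), and Smad2, a transducer of TGFβ signals (r = 0.988, rho = 0.983). They were found by searching all genes, over arrays that share groups and were centred by replicate number. Their log2 fold changes in GCM LN18 were -0.33 for Wls, -0.23 for Rnf103 and -0.33 for Smad2, and 0 of the 3 passed the test there (adjusted p = 0.0685, 0.162 and 0.0505 from limma).

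Dusp1 and Dusp2 are immediate early genes of nuclear phosphatases that act on p38 and JNK as well as ERK, and Dusp1 is known to restrain inflammatory cytokines in macrophages. Promoter windows of 300 bases, 250 of them before the start site, were given by RefSeq for 9 of the 10 members (GRCm38.p6), with Dusp4 the one not matched. On both strands they were searched for TGACGTCA (the site of CREB), TGANTCA (AP-1), CCGGAAG (ETS factors), GCGNGGGCG (Egr factors) and the CArG box of serum response factor. AP-1 and ETS letters were found in 0 of the 9 windows, against 7.81% and 8.86% of 32851 mouse windows. The CREB site was in that of Dusp1 (1.79% of all windows), the Egr site in that of Dusp2 (5.55%) and the CArG box in that of Dusp5 (1.63%). The 250 bases before the start sites of Dusp1 (chr17:26508473-26508722, minus strand) and Dusp2 (chr2:127335909-127336158, plus strand) are shown because these are the measured members with a match. Capitals mark the CREB site of Dusp1, at -143 to -136 from the start, and the Egr site of Dusp2, at -98 to -90.
Dusp1: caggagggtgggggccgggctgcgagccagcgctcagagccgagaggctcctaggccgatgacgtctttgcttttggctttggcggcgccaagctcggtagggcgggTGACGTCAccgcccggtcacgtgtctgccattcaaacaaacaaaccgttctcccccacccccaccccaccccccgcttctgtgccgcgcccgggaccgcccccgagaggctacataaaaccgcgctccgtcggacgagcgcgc
Dusp2: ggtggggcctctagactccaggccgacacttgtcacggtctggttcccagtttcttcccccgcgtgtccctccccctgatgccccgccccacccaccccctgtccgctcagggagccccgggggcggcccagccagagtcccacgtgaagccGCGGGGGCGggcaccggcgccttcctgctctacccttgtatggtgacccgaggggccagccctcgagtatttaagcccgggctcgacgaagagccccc
A match gives letters only, and binding was not measured here.

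Dusp1 lies on chromosome 17 (26505591-26508472) and Dusp2 on chromosome 2 (127336159-127338377). The log2 signal of Dusp1 was 8.42, 8.76 and 8.69 with GCM LN18, 8.57, 8.36 and 8.55 with GCM U87-MG, and 8.65, 8.51 and 8.40 in control. The 3 groups overlapped, and replicate 1 was the lowest array in GCM LN18 but the highest in control. The log2 fold change of Dusp1 was 0.11 in GCM LN18 (95% confidence interval -0.15 to 0.36, adjusted p = 0.776 from limma) and -0.03 in GCM U87-MG (-0.28 to 0.23, adjusted p = 0.968).

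Dusp2, which is best known from activated leukocytes, had a log2 signal of 4.18, 4.05 and 4.29 with GCM LN18, 4.04, 4.57 and 4.31 with GCM U87-MG, and 4.35, 3.94 and 3.97 in control. It lay below the median of all genes, and its arrays overlapped. Its interval was the widest of the members, with a log2 fold change of 0.09 in GCM LN18 (95% confidence interval -0.28 to 0.45) and 0.22 in GCM U87-MG (-0.14 to 0.59).

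Dusp6 and Dusp7 encode cytoplasmic phosphatases with a preference for ERK, and Dusp6 is a widely used readout of ERK activity. Dusp6 lies on chromosome 10 (99263231-99267489) and Dusp7 on chromosome 9 (106368560-106375724). The log2 signal of Dusp6 was 10.13, 10.04 and 10.03 with GCM LN18, 10.10, 9.81 and 9.98 with GCM U87-MG, and 9.64, 10.03 and 9.86 in control. The lowest GCM LN18 array and the highest control array were level at 10.03, and control replicate 1 was the lowest of the 9. Dusp6 had a log2 fold change of 0.22 in GCM LN18 (95% confidence interval -0.04 to 0.48, adjusted p = 0.503 from limma) and 0.12 in GCM U87-MG (-0.14 to 0.38, adjusted p = 0.812). With control arrays left out in turn, the GCM LN18 value lay between 0.07 (without replicate 1) and 0.36 (without replicate 2), and without control replicate 1 the GCM U87-MG value turned to -0.04.

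The log2 signal of Dusp7 was 7.26, 7.26 and 7.43 with GCM LN18, 7.50, 7.40 and 7.20 with GCM U87-MG, and 7.33, 7.43 and 7.46 in control. The groups overlapped, and the lowest array was in GCM U87-MG. Its log2 fold changes were -0.09 in GCM LN18 (95% confidence interval -0.30 to 0.12) and -0.04 in GCM U87-MG (-0.25 to 0.17).

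Spry1 and Spry2 encode Sprouty proteins, which are phosphorylated after growth factor stimulation and hold back the activation of Ras and Raf. Spry1 lies on chromosome 3 (37639947-37644599) and Spry2 on chromosome 14 (105891947-105896819). Spry1, below the median of all genes, had a log2 signal of 3.70, 3.71 and 3.80 with GCM LN18, 3.63, 3.84 and 3.87 with GCM U87-MG, and 4.14, 3.92 and 3.80 in control. Control replicate 1 was the highest array, and control replicate 3 lay within the range of both media. The log2 fold change of Spry1 was -0.21 in GCM LN18 (95% confidence interval -0.45 to 0.03, adjusted p = 0.474 from limma) and -0.17 in GCM U87-MG (-0.41 to 0.07, adjusted p = 0.685). The GCM LN18 value was -0.07 without control replicate 1 and -0.33 without control replicate 3.

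Spry2 had a log2 signal of 6.76, 6.86 and 6.72 with GCM LN18, 7.06, 7.01 and 6.72 with GCM U87-MG, and 6.59, 6.54 and 6.98 in control. Control replicate 3 lay above all GCM LN18 arrays, while the other control arrays lay below all arrays of both media. Its log2 fold change was 0.08 in GCM LN18 (95% confidence interval -0.24 to 0.39) and 0.23 in GCM U87-MG (-0.09 to 0.54, adjusted p = 0.681 from limma). Without control replicate 3 these were 0.28 and 0.43 (adjusted p = 0.209 and 0.118), and without control replicate 2 they were -0.05 and 0.11, so the direction in GCM LN18 rests on which control arrays are used.

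Spred1 and Spred2 bring neurofibromin, a GTPase-activating protein that switches Ras off, to the membrane. Spred1 lies on chromosome 2 (117121071-117182279) and Spred2 on chromosome 11 (19924442-20024026). The log2 signal of Spred1 was 9.65, 9.59 and 9.61 with GCM LN18, 9.66, 9.59 and 9.57 with GCM U87-MG, and 9.48, 9.62 and 9.61 in control. That of Spred2 was 8.26, 8.27 and 8.33 with GCM LN18, 8.37, 8.28 and 8.23 with GCM U87-MG, and 8.23, 8.31 and 8.29 in control. These were the members with the narrowest intervals. The log2 fold change of Spred1 lay between -0.10 and 0.20 in GCM LN18 and between -0.11 and 0.19 in GCM U87-MG by the 95% confidence interval, and that of Spred2 between -0.13 and 0.15 and between -0.13 and 0.16.

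**Figure D2:**
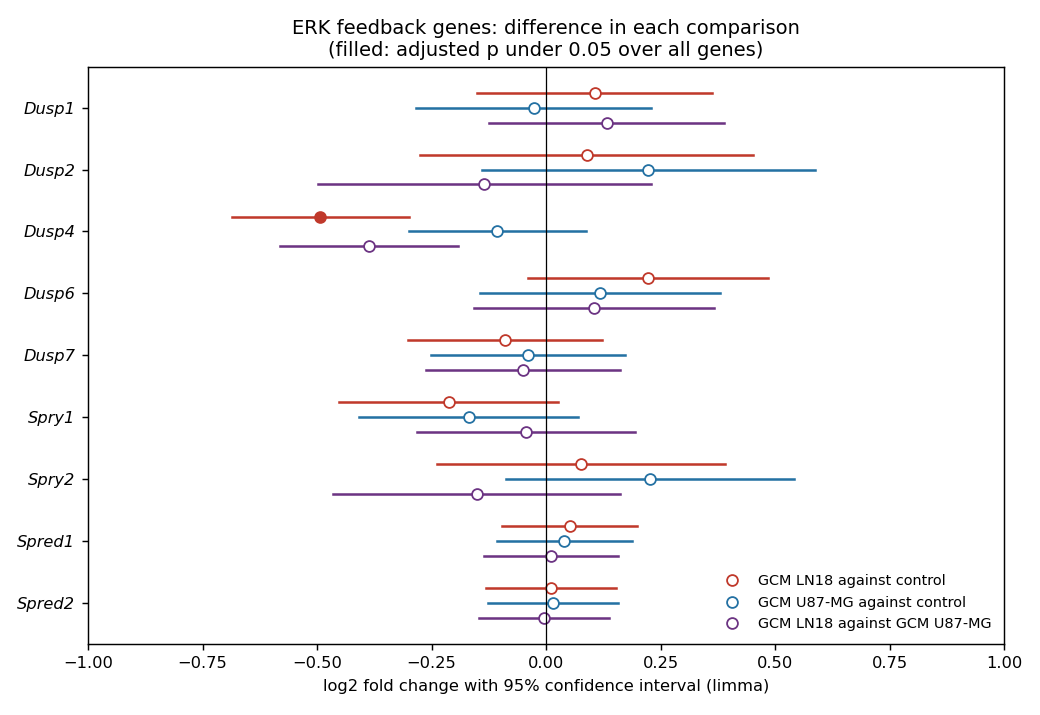
Log2 fold change (horizontal axis) with its 95% confidence interval from limma for the 9 measured ERK feedback genes (rows), for each medium against control and for GCM LN18 against GCM U87-MG. The only filled circle, for an adjusted p under 0.05, is Dusp4 in GCM LN18 at -0.49, and the intervals of all other members against control include 0.

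For the 8 members that did not pass in GCM LN18, the 95% confidence intervals reached from -0.45 to 0.48, and for the 9 members in GCM U87-MG from -0.41 to 0.59. These intervals are of the array signal, and for the dim Dusp2 and Spry1 they set no limit on the change of the transcript. Between the media, log2 differences of the members other than Dusp4 ran from -0.15 for Spry2 (95% confidence interval -0.47 to 0.16) to 0.13 for Dusp1 (-0.12 to 0.39).

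The 9 measured members are covered by 20 probe sets, and 4 of the genes have several. When all probe sets were tested, 0 of the 20 passed with GCM LN18 and 0 with GCM U87-MG by limma. The 5 probe sets of Spred1 gave log2 fold changes between -0.03 and 0.05 in GCM LN18. In GCM U87-MG, 1 of them, of lower signal (6.86), gave 0.23 (unadjusted p = 0.0142, adjusted p = 0.444) against 0.04 for the brightest. The 5 of Spred2 ran from -0.11 to 0.16 in GCM LN18 and from -0.08 to 0.10 in GCM U87-MG. A second probe set of Dusp7 (signal 6.82) gave -0.21 in GCM U87-MG (unadjusted p = 0.0348, adjusted p = 0.537) against -0.04 for the brightest, and the dim second probe set of Spry2 gave -0.02 with GCM LN18 and 0.08 with GCM U87-MG.

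**Figure D3:**
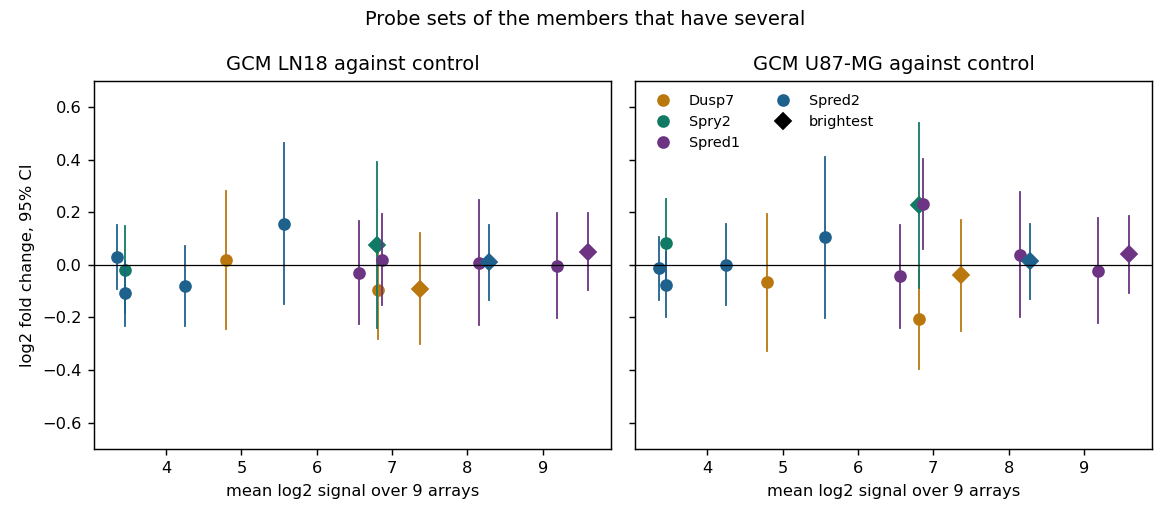
Log2 fold change against control with its 95% confidence interval (vertical axis) by mean log2 signal over the 9 arrays (horizontal axis) for the probe sets of Dusp7, Spry2, Spred1 and Spred2, with diamonds for the brightest of each gene. In GCM LN18 the intervals of all 15 probe sets include 0, and in GCM U87-MG those of 1 probe set of Spred1 (0.23) and 1 of Dusp7 (-0.21) do not.

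Genes that ERK induces, from immediate early factors to Ccnd1, were described beside their inhibitors. Of 26 such genes, 25 were measured, and 1 rose and 0 fell in GCM LN18 (median log2 fold change 0.05), against 0.877% of all genes called, while 0 changed in GCM U87-MG by limma (median 0.04). At an unadjusted p under 0.05 there were 8 of 25 in GCM LN18, against 12.2% of all genes, and 6 of 25 in GCM U87-MG, against 9.12%. The gene that rose was Trib1, which encodes a pseudokinase that binds MEK and directs proteins to degradation. Its log2 signal was 6.15 ± 0.03 in GCM LN18, 5.87 ± 0.08 in GCM U87-MG and 5.43 ± 0.11 in control (SD, n = 3 each). Trib1 had a log2 fold change of 0.72 in GCM LN18 (standard error 0.08, adjusted p = 0.0129 from limma) and 0.44 in GCM U87-MG (adjusted p = 0.128, 0.0170 without the replicate block). The call in GCM LN18 was lost without GCM LN18 replicate 1 (adjusted p = 0.0717), 2 (0.125) or 3 (0.0582), with log2 fold changes between 0.69 and 0.74.

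Fos, a subunit of AP-1, had a log2 signal of 10.43 ± 0.10 in GCM LN18, 10.26 ± 0.10 in GCM U87-MG and 9.90 ± 0.20 in control (SD, n = 3 each). All arrays of both media lay above the control arrays, with log2 fold changes of 0.53 in GCM LN18 (adjusted p = 0.0825 from limma, 0.0185 without the replicate block) and 0.36 in GCM U87-MG (adjusted p = 0.399). Egr1, an immediate early zinc finger factor, also had all arrays of both media above control, with log2 fold changes of 0.22 with GCM LN18 and 0.29 with GCM U87-MG (limma, adjusted p = 0.315 and 0.321). Etv5, an ETS factor used as a readout of ERK activity with Dusp6, had a log2 fold change of 0.05 in GCM LN18 and of 0.10 in GCM U87-MG. The related Etv4 had a signal of 2.58 in GCM LN18, 2.60 in GCM U87-MG and 2.53 in control, below the median gene level of 4.34, so that no change of it can be read. The cell cycle gene Ccnd1 was at 0.11 with GCM LN18 and 0.09 with GCM U87-MG, Myc at 0.17 and 0.11, Ier3 at 0.12 and -0.10, and Phlda1 at -0.04 and 0.04, and none of Etv5, Ccnd1, Myc, Ier3 and Phlda1 passed the test in either medium (adjusted p from 0.308 in GCM LN18 and from 0.650 in GCM U87-MG, limma).

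Another 13 genes were listed as feedback inhibitors of receptor and Ras signalling, though Sulf2 and some others do not act as inhibitors alone. Of the 13, 1 rose and 0 fell in GCM LN18 (median log2 fold change -0.0039), against 0.877% of all genes called. In GCM U87-MG 0 changed by limma (median 0.02), against 0.0468% of all genes. At an unadjusted p under 0.05 there were 4 of 13 in each medium, against 12.2% of all genes with GCM LN18 and 9.12% with GCM U87-MG. Sulf2, a sulfatase that trims heparan sulfate and so alters the growth factors held at the cell surface, had a log2 signal of 7.97 ± 0.05 in GCM LN18, 7.94 ± 0.09 in GCM U87-MG and 7.54 ± 0.08 in control (SD, n = 3 each). Its log2 fold change was 0.43 in GCM LN18 (adjusted p = 0.0473 from limma) and 0.40 in GCM U87-MG (adjusted p = 0.165, 0.0190 without the replicate block). As the mean of its probe sets, Sulf2 was at 0.14 in GCM LN18 (adjusted p = 0.552), and of the 9 arrays left out 1 at a time the call held only without GCM U87-MG replicate 2 (adjusted p = 0.0289, and between 0.0543 and 0.278 otherwise). Errfi1, a feedback inhibitor of the EGF receptor named after its values were seen, was at 0.59 in GCM LN18 (adjusted p = 0.0635, 0.0126 without the replicate block).

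Other phosphatases and inhibitors of the Dusp, Spry and Spred families were all 11 measured, and 0 changed in either medium by limma (2 and 1 at an unadjusted p under 0.05, against 12.2% and 9.12% of all genes, median log2 fold changes -0.04 with GCM LN18 and -0.02 with GCM U87-MG). Dusp16, a phosphatase of JNK, was at -0.14 in GCM LN18 (adjusted p = 0.451) and -0.09 in GCM U87-MG (adjusted p = 0.733). Dusp10, which acts on p38 and JNK, and Spry4 were too dim for a change to be read, at 2.96 and 3.22 with GCM LN18, 2.96 and 3.13 with GCM U87-MG, and 2.98 and 3.21 in control. Dusp3 at -0.29 (limma, adjusted p = 0.0565) and Dusp22 at -0.25 (0.157) in GCM LN18 were both named after their values were seen. Without the replicate block, where p-values are too small, both passed there (limma, adjusted p = 0.00328 and 0.0288), against 5.23% of all genes.

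Of 39 genes of the Ras-ERK cascade, 30 were measured, and 0 changed in either medium by limma (7 and 7 at an unadjusted p under 0.05, against 12.2% and 9.12% of all genes, median log2 fold changes -0.03 with GCM LN18 and -0.04 with GCM U87-MG). Mapk3, which encodes ERK1, was not analysed here. The largest value, named after it was seen, was that of Elk3, an ETS factor that ERK phosphorylates, at 0.74 in GCM LN18 (adjusted p = 0.0926, 0.0259 without the replicate block) and 0.54 in GCM U87-MG (adjusted p = 0.383). Without the block, 4 lower genes also passed in GCM LN18, namely Gab2 (-0.22), Rasa3 (-0.40), Map2k5 (-0.32) and Mknk1 (-0.33), against 5.23% of all genes. In GCM U87-MG, Rasa3 (-0.43) and Mknk1 (-0.30) passed without the block, against 1.51% of all genes. These genes too were named after their values were seen. Of 17 genes of p38 and JNK and their kinases, 15 were measured and 0 changed in either medium by limma (1 and 0 at an unadjusted p under 0.05, against 12.2% and 9.12% of all genes, medians -0.03 and -0.02). Of 26 growth factor receptor genes, 23 were measured and 0 changed in either medium by limma (3 and 3 at an unadjusted p under 0.05, against 12.2% and 9.12% of all genes, medians -0.01 and 0.02). Csf1r, the receptor on which microglia depend for survival, was at 0.18 in GCM LN18 (adjusted p = 0.756) and 0.19 in GCM U87-MG (adjusted p = 0.791).

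**Figure D4:**
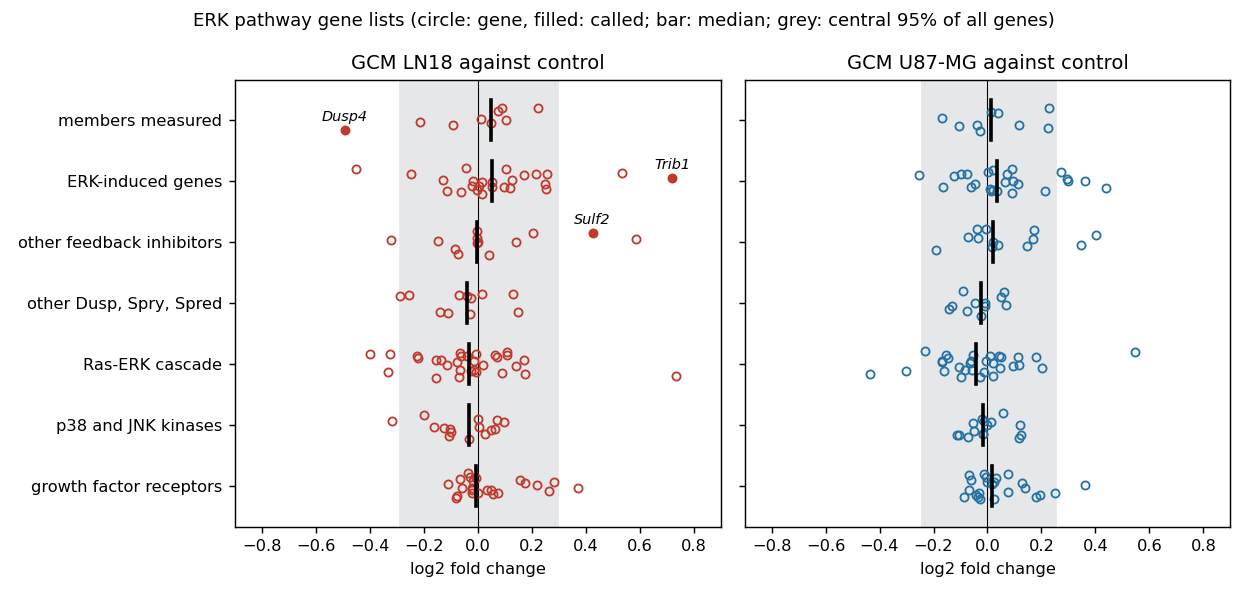
Log2 fold change (horizontal axis) of the measured members and of 6 lists of ERK pathway genes (rows, with points spread vertically at random for legibility), for each medium against control, with a black bar at each median and the central 95% of all genes in grey. The medians lie between -0.04 and 0.05, and the genes past the test are Dusp4 (-0.49), Trib1 (0.72) and Sulf2 (0.43) in GCM LN18 and none of the plotted genes in GCM U87-MG.

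Some microglia markers moved in the same comparisons. Cx3cr1, the fractalkine receptor, and Tmem119 were 2 of 15 measured microglia markers that rose in GCM LN18 (log2 fold changes 0.97 and 0.91, adjusted p = 0.00827 and 0.0390 from limma), and Cx3cr1 was 1 of 15 in GCM U87-MG (0.78, adjusted p = 0.0499), against 0.877% and 0.0468% of all genes. In the same list 0 fell past the test in either medium, but Sall1 and P2ry13 were lower in both media than in control. The log2 signal of Sall1 was 4.75 with GCM LN18, 4.63 with GCM U87-MG and 4.87 in control, and that of P2ry13 was 4.44, 4.33 and 4.55. In 12 fits with arrays left out, the call of Cx3cr1 held in 9 for GCM LN18 and in 2 for GCM U87-MG (adjusted p up to 0.127 and 0.360), and that of Tmem119 in 2 (up to 0.228). Tmem119 had a log2 signal of 4.79 ± 0.15 in GCM LN18, 4.18 ± 0.19 in GCM U87-MG and 3.88 ± 0.24 in control (SD, n = 3 each). In GCM U87-MG and control it lay below the median gene level of 4.34, so its fold change sets no limit on the change of the transcript. The summed linear signal of the 15 markers was between 18958 and 19239 with GCM LN18, 18146 and 19239 with GCM U87-MG, and 16212 and 16994 in control. Among markers of neurons, astrocytes, oligodendrocyte lineage cells, border macrophages, and fibroblasts with endothelium, 0 changed in either medium by limma (at most 2 of a list at an unadjusted p under 0.05). The part of these markers in the Dusp4 value was not tested.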

How the data were processed

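Primary murine microglia were profiled on 9 Affymetrix MG-430 PM strip arrays, 3 each for GCM LN18, GCM U87-MG and control. Groups and replicate numbers were taken from the sample titles. The authors deposited log2 signals of 45141 probe sets, from 1.56 to 12.88, with array medians of 3.39 to 3.41. The submitters' notes name limma, and the paper names R and Bioconductor. The methods name RMA for microarray data in a comparison of data sets, and whether it was used for these arrays is not given in the sources used here.

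Control probe sets (104), those with several symbols (551) and those unnamed here (15588) were left out. Of 28898 with 1 symbol, 28689 were matched to a current symbol, and each of 17097 genes was read from its brightest probe set. Values were fitted in limma 3.58.1 (R 4.3.3) with group means and the replicate number as a block, with Benjamini-Hochberg adjustment and a threshold of 0.05. The block rests on the equal replicate means in the deposited log2 values, which leave 4 residual degrees of freedom where a fit of groups alone counts 6. A fit of groups alone therefore gives p-values that are too small. Deviations from group means of same-numbered arrays correlated between -0.72 and -0.06.

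The members and gene lists were chosen with earlier results of these data known. All members were named, with fixed genes of the pathway (1 of which is not reported here) and up to 4 higher and 4 lower genes per list past the test in either medium. Alternatives were no block, robust estimation with a trend, only genes above the median level, the mean of probe sets, quantile normalization, only the groups compared, and each array left out. Adjustment over all probe sets and leaving out all arrays of a replicate number were added after the data were seen.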

Additional observations from a re-analysis of the deposited data

How the results depend on the processing

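With the replicate block, 150 genes passed for GCM LN18, 8 for GCM U87-MG, 139 for the mean of both media and 0 between the media. Without the block these were 894, 259, 823 and 1. Only the arrays of the groups compared gave 89 genes for GCM LN18 and 0 for GCM U87-MG, where trend and robust estimation gave 21, the mean of probe sets 5, and the filter on dim genes, quantile normalization and adjustment over all probe sets 3 each. Leaving out 1 array, or all arrays of a replicate number, gave between 2 and 179 genes with GCM LN18, 0 and 10 with GCM U87-MG, and 2 and 154 for the mean of both media.

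Of the members, 1 was called in GCM LN18, and between 0 and 1 with arrays left out. It was 0 when adjusted over all probe sets. For the mean of both media 0 were called, 1 without the replicate block, and between 0 and 1 with arrays left out (Dusp4, with GCM U87-MG replicate 2 left out, adjusted p = 0.0466). Between the media and in GCM U87-MG, 0 members were called under every alternative run (limma). Dusp4 passed in GCM LN18 without the block (adjusted p = 0.00636), with trend and robust estimation (0.0360), the filter (0.0449), the mean of probe sets (0.0488), quantile normalization (0.0370) and only the groups compared (0.0442), and without all arrays of a replicate number its adjusted p was between 0.130 and 0.245. The filter on dim genes removed Dusp2 and Spry1. The block ended no call of a member against control in a single medium. Of 667 values of member fold changes under alternatives, 638 stayed on the same side of the threshold and either kept their sign or, uncalled, moved by less than the standard error. Of the rest, 11 lost a call, 2 gained one and 16 uncalled values changed sign by more than that. All 11 lost calls were of Dusp4 in GCM LN18, the only member value called in the main fit and so able to lose a call. That call held in 2 of 12 fits with arrays left out.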
